A study of Mus musculus with 2 samples.

Results

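Iron storage, iron transport and heme breakdown were examined through 7 genes, Fth1, Ftl1, Trf, Tfrc, Hmox1, Cp and Hamp, in tumours grown from Colon26, a mouse colon carcinoma line. The genes were chosen by name, and probes with a value on both arrays were averaged per gene. Of the 7 genes, 6 were measured on both arrays, among 13506 genes measured in all. Hamp had a probe without a value on either array. Colon26 cells were cultured in RPMI1640 with serum and placed under the rectal mucosa of Balb/c mice by injection. RNA came from primary tumours and from metastases in the liver. Each of 2 two-colour arrays compared 1 primary tumour, labelled with Cy5, with 1 liver metastasis, labelled with Cy3, and the arrays did not share tumours. The question was how these genes differ between primary tumour and liver metastasis.

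Each value is a log ratio of the 2 channels, taken as log2. The sources used here give neither the base nor the channel in the numerator, so values are called positive or negative and neither sign is assigned to the metastasis. The deposited table holds no intensities, so the level of a gene in one tissue, the identity of the tissue by its markers and the brightness of a spot could not be examined. The dyes ran the same way on both arrays, and a bias of a probe towards 1 dye cannot be told apart from a difference between the tissues. In whole tumours, fewer cells of a type and less RNA per cell cannot be told apart either. A gene was called where limma's moderated test of the mean ratio against 0 gave an adjusted p under 0.05 over all 13506 genes.

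Cells take up iron from transferrin in the blood through the transferrin receptor, use it for heme and iron-sulfur clusters, and store the rest in ferritin, a hollow shell of heavy and light chains. When iron is short, iron regulatory proteins block the translation of the ferritin messengers and stabilise the messenger of the transferrin receptor, so storage and uptake are set in opposite ways after transcription. The liver is the main store of iron and the source of transferrin, ceruloplasmin and hepcidin in plasma. Heme oxygenase opens the heme ring and frees its iron, and its gene, like those of both ferritin chains, is a known target of the stress-response factor Nrf2.

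Of the ferritin genes, Fth1 was clearly negative on both arrays and Ftl1 on array 2. Fth1, the ferritin heavy chain, which oxidises iron as it enters the shell, had -1.55 on array 1 and -2.02 on array 2. Both values were far below 0, and the mean was -1.79 ± 0.33 (SD, n = 2; 95% limma interval from -2.25 to -1.32; limma adjusted p = 0.0306). If the base is 2, this is a ratio of 3.45-fold, with 2.93-fold on array 1 and 4.06-fold on array 2, and 5.97-fold if it is a natural logarithm. Fth1 was the 1 member called. Over all genes 2.90% were called, 0.777% on the negative side, and Fth1 ranked 27 from the negative end of 13506. In 7 of 10 alternatives it remained called, and it was not called after quantile normalization (limma adjusted p = 0.0654), with a variance trend (limma adjusted p = 0.106) and without moderation (limma adjusted p = 0.471).

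Ftl1, the light chain, which helps the iron core to form, had -0.01 on array 1 and -1.47 on array 2. The ratio was near 0 on the first array, where it became 0.01 after centring or scaling to equal spread, and wide on the second, so the mean of -0.74 ± 1.03 (SD, n = 2) did not pass (limma adjusted p = 0.244). On array 2 alone Ftl1 lay at the 0.400 percentile of all genes, close to Fth1 at 0.178, and on array 1 it lay at the 51.3 percentile, against 0.274 for Fth1. Fth1 minus Ftl1 was -1.54 units on array 1 and -0.55 on array 2. With 1 pair of tumours per array, the difference between arrays has no replicate and was not tested. The RefSeq gene table holds 2 pseudogenes named after the heavy chain, Fth-ps2 and Fth-ps3. It holds 3 named after light chains, Ftl1-ps1, Ftl1-ps2 and Ftl2-ps, and either probe may also read such copies.

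The stretches just before the transcription starts of both ferritin genes are shown because the 2 chains form 1 shell and both were far below 0 on array 2. They are 250 bases each, from RefSeq on GRCm38.p6, 5′ to 3′ on the strand of the gene. For Fth1 the downstream one of its 2 annotated starts was printed, since the window before the other start held none of the motifs searched (chr19:9982396-9982645, plus strand), and for Ftl1 its 1 start (chr7:45459887-45460136, minus strand). Capitals mark the CCAAT box, read as ATTGG on the other strand.
Fth1: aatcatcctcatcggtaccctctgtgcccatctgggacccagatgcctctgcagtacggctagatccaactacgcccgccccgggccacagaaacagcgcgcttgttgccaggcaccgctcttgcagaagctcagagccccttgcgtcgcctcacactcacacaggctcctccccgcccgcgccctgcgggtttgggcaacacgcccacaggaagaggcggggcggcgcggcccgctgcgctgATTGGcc
Ftl1: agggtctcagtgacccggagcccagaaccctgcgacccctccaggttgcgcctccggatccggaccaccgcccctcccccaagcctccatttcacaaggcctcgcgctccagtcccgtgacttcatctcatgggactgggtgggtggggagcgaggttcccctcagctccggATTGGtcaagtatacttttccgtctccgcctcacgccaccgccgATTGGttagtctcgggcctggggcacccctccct
The box lies 7 bases before the Fth1 start and 78 and 34 bases before the Ftl1 start, counted from its first printed base, each time on the opposite strand. CCAAT on either strand was found in 33.8% of 32851 such windows over all genes, so its presence here is a description only. It was also found before 1 of 2 starts of Tfrc and 1 of 2 of Cp, which were not on the side of Fth1 on both arrays, and not before the start of Hamp. ACGTG, the core bound by hypoxia-inducible factors, and TGACNNNGC, a form of the antioxidant response element, searched on both strands, were in neither window. They occurred in 16.6% and 10.2% of all windows. Elements farther than 250 bases from a start were not searched, so their absence here says nothing of those. Among the other members, ACGTG was found before 1 of 2 starts of Tfrc, 228 bases from it, and TGACNNNGC before none. Windows were held for 5 of the 7 members, without Trf and Hmox1.

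**Figure D1:**
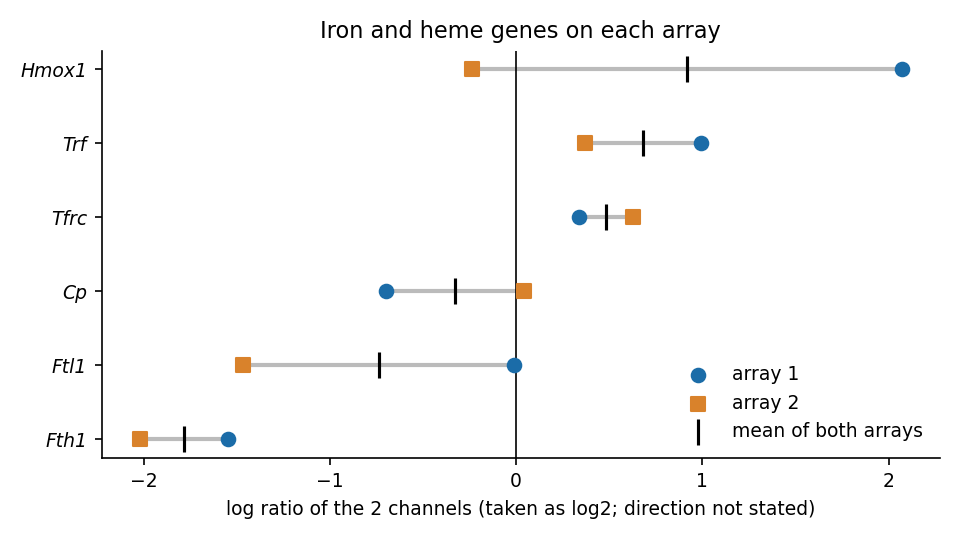
Log ratio (horizontal axis, taken as log2) of the 6 measured members on array 1 (circles) and array 2 (squares), with the mean as a vertical tick. Fth1 is below -1.5 on both arrays, Trf and Tfrc are above 0 on both, and Hmox1 spans from 2.07 to -0.24.

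The other storage genes of the list were nearer to 0. Pcbp1, a chaperone that delivers iron to ferritin, had -0.20 and -0.48 on the arrays, a mean of -0.34 ± 0.20 (SD, n = 2). Ncoa4, the receptor that takes ferritin to the lysosome for breakdown, had 0.24 and 0.06. Ftmt, mitochondrial ferritin, had 0.54 and 0.08. Of the 6 storage genes, all measured, both values were negative for 3 and positive for 2, and 1 was called, with a median of -0.23 beside -0.02 for all genes.

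Transferrin and its receptor had positive values on both arrays, as had 33.9% of all genes. Trf, transferrin, the iron carrier of plasma, had 0.99 on array 1 and 0.37 on array 2. Both were positive, and the mean of 0.68 ± 0.44 (SD, n = 2) did not pass (limma adjusted p = 0.124). Tfrc, the transferrin receptor that carries the loaded protein into the cell, had 0.34 and 0.63, a mean of 0.48 ± 0.20 (95% limma interval from 0.07 to 0.90; limma adjusted p = 0.148). Neither gene stood out by size, since 11.4% of genes lay at least as far from 0 as Trf and 23.3% as far as Tfrc. Both had an unadjusted p under 0.05 in limma's test, at 0.0202 and 0.0309, as had 27.5% of all genes. Within each array Fth1 was below both, with Fth1 minus Tfrc at -1.89 units on array 1 and -2.65 on array 2, and Fth1 minus Trf at -2.54 and -2.39.

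Partners of the transferrin route were mixed. Tfr2, the second transferrin receptor, which senses iron in liver cells, had 0.71 and 0.64, a mean of 0.68 ± 0.05 (SD, n = 2; limma adjusted p = 0.0834). Steap3, the reductase of the endosome, had -0.26 and 0.01, and Slc11a2, the transporter DMT1 that takes iron out of the endosome, had -0.02 and -0.43. Slc39a8 and Slc11a1, transporters of metals, had means of 0.70 ± 0.08 and 0.57 ± 0.06, and Steap2, another metalloreductase, had -0.69 ± 0.24. Of 14 measured uptake genes, both arrays were positive for 6 and negative for 7, beside 33.9% and 38.2% of all genes. None was called by limma, while 6 had an unadjusted p under 0.05, beside 2.90% and 27.5% of all genes. The median of the list was -0.16.

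Export showed no side. Cp, ceruloplasmin, the copper protein of plasma that oxidises iron on its way to transferrin, had -0.70 on array 1 and 0.04 on array 2. The arrays had opposite signs, as for 27.8% of all genes, and the mean of -0.33 ± 0.52 (SD, n = 2) did not pass (limma adjusted p = 0.376). Slc40a1, ferroportin, the channel by which iron leaves cells, had 0.31 and -0.39. Hephl1, a relative of ceruloplasmin, had -0.42 and -0.06, and Heph had no value on both arrays.

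Hamp encodes hepcidin, the liver hormone that closes ferroportin, and its own ratio was not measured. Genes that act on it or beside it were followed instead. Hfe, a sensor of transferrin-bound iron, had 0.69 and 0.61, a mean of 0.65 ± 0.06 (SD, n = 2; limma adjusted p = 0.0879). Bmp2, a bone morphogenetic protein that induces hepcidin, had -0.37 and -1.33. Tmprss6, the protease that restrains this signal, had a value of 1.72 on array 2 only, and Hjv had none on both arrays.

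Regulation inside the cell included the widest ratio of the iron lists. Epas1, the hypoxia-inducible factor HIF-2alpha, whose messenger carries an iron-responsive element, had 1.19 on array 1 and 2.81 on array 2. Both arrays were strongly positive, but they lay far apart, and the mean of 2.00 ± 1.14 (SD, n = 2) did not pass (limma adjusted p = 0.0663). Fbxl5, which marks iron regulatory protein 2 for breakdown when iron is plentiful, had -0.44 and -0.56. Of 17 measured regulation genes, 4 had positive and 7 negative values on both arrays, and 6 changed sign. Over all genes these shares were 33.9%, 38.2% and 27.8%. Limma's calls among them numbered 0, and 4 had an unadjusted p under 0.05, beside 2.90% and 27.5% of all genes.

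The gene of heme breakdown differed between the arrays. Hmox1, heme oxygenase 1, the inducible enzyme that opens heme, had 2.07 on array 1 and -0.24 on array 2. It was far on the positive side in the first pair of tumours, at the 99.7 percentile of all genes, and slightly negative in the second, at the 32.3 percentile. The mean of 0.92 ± 1.63 (SD, n = 2; 95% limma interval from -0.45 to 2.28) did not pass (limma adjusted p = 0.314). The gap of 2.31 units between the arrays was matched or exceeded in 5 of 13506 genes, Hmox1 included, where the median gap was 0.25.

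The enzymes after and beside it were Blvrb, Blvra and Hmox2. Blvrb, biliverdin reductase B, had 1.50 on array 1 and 0.16 on array 2, also higher on array 1. Blvra, the main reductase of the bile pigment made by heme oxygenase, had 0.38 and 0.46, a mean of 0.42 ± 0.06 (SD, n = 2), and did not share the gap. Hmox2, the constitutive heme oxygenase, had -0.20 and 0.14. Nfe2l2, which encodes Nrf2, had 0.56 and 0.31, and its DNA-binding partner Mafk had -0.85 and -0.87, a mean of -0.86 ± 0.01 (limma adjusted p = 0.0573). Bach1, the heme-sensing repressor of Hmox1, had no value on both arrays.

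Heme breakdown and scavenging held 13 measured genes. The 2 arrays were both positive for 5 of them and both negative for 4, beside 33.9% and 38.2% of all genes. Limma called 0 of the 13, and 6 reached an unadjusted p under 0.05, beside 2.90% and 27.5% of all genes. Lrp1, the receptor that takes up hemopexin loaded with heme, had -1.38 and -0.90, a mean of -1.14 ± 0.34 (SD, n = 2; limma adjusted p = 0.0508). Cd163, the macrophage receptor for haptoglobin bound to haemoglobin, had 0.39 and 0.93. Both scavenger receptors kept their side on the 2 arrays, on opposite sides of 0.

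Most targets of Nrf2 outside iron metabolism were, like Hmox1, higher on array 1. Of 19 measured, 17 were higher on array 1 than on array 2, beside 51.9% of all genes, and the median gap was 0.90 units beside 0.02. A gap of at least 1 unit towards array 1 was met by 8 of the 19, beside 2.91% of all genes. The list was chosen with earlier results of these data known. These shares are therefore a description and no independent check of the gap of Hmox1. Nqo1, a quinone reductase, had 2.22 and 0.10, Gclm, a subunit of the enzyme that starts glutathione synthesis, had 1.49 and 0.13, and Gclc, its catalytic subunit, had 1.21 and 0.31. The glutathione transferases Gsta4 and Gstm1 had 3.18 and 0.21, and 1.40 and 0.22. Gsta2, another transferase, had 2.27 and -2.11, the widest gap of any gene. Slc7a11, the cystine transporter, had 0.66 and -0.92. The exceptions were Txn1, thioredoxin, at 0.04 and 0.40, and Gpx2, a glutathione peroxidase, at -0.29 and 0.33. Names of this list beyond Gclc, Gsr, Gsta4 and Gstm1 were chosen after their values were seen.

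Ftl1 and Fth1 were also higher on array 1, by 1.46 and 0.47 units. Gaps as wide, in either direction, were met by 1.25% and 23.4% of all genes. Trf was higher on array 1 as well, by 0.62 units, while Tfrc and Cp were higher on array 2. Of the 19 targets limma called 0, and 3 reached an unadjusted p under 0.05, beside 2.90% and 27.5% of all genes. Values were positive on both arrays for 10 and negative on both for 1, beside 33.9% and 38.2% of all genes. The gap was not removed by scaling, with a median over the targets of 0.98 units after scaling to equal spread and 0.91 after quantile normalization. Array 1 was also higher for 14 of 15 genes of heme synthesis and transport, with a median gap of 0.35 units, and for all 6 storage genes, with 0.46. It was higher for 7 of 14 uptake genes, 7 of 13 genes of heme breakdown and scavenging, 10 of 27 genes of mitochondrial iron and 8 of 15 hepatocyte markers. In direction, the lean to array 1 was therefore not particular to the Nrf2 targets. Gaps of at least 1 unit towards array 1 were met by 8 of the 19 targets and 2 of 13 genes of heme breakdown and scavenging. They were met by 0 of 15 genes of heme synthesis and transport and by 1 of 6 storage genes, Ftl1. For hepatocyte markers it was 2 of 15, for uptake genes 0 of 14 and for genes of mitochondrial iron 1 of 27, beside 2.91% of all genes. Each array holds 1 pair of tumours, so whether the pairs or the hybridisations differ cannot be told apart.

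**Figure D2:**
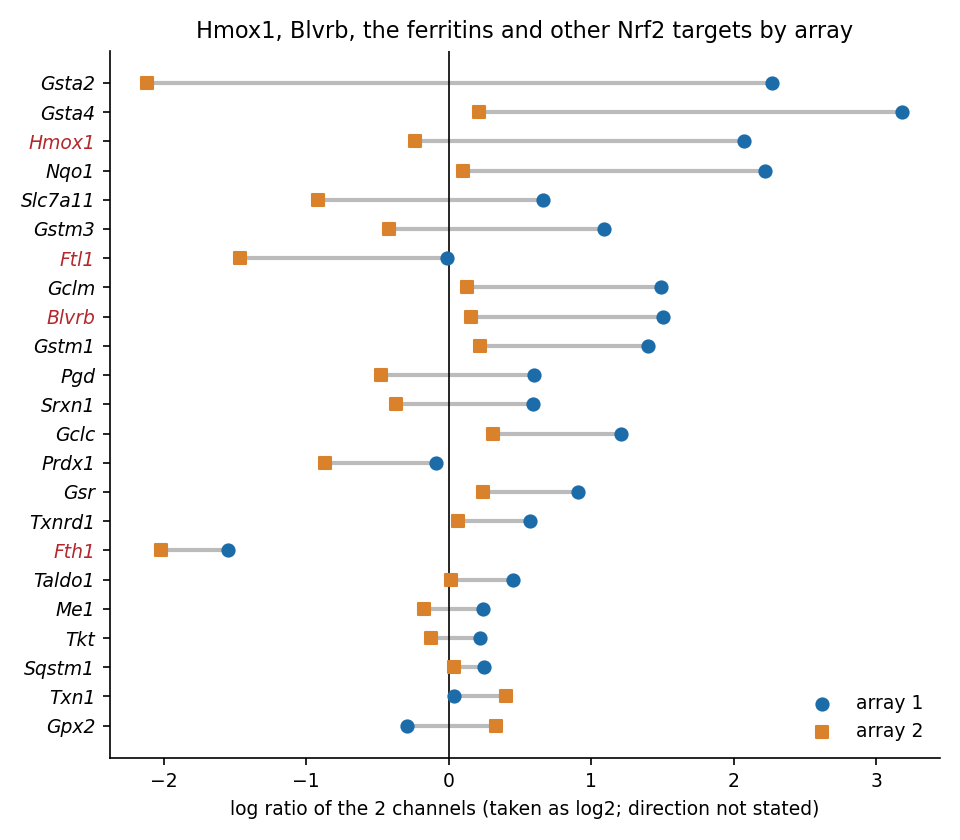
Log ratio (horizontal axis, taken as log2) of Hmox1, Blvrb, Ftl1 and Fth1 (red names) and of 19 other Nrf2 targets (black names) on array 1 (circles) and array 2 (squares), ordered by the gap. Among the genes drawn, array 1 lies to the right for all but Txn1 and Gpx2. The red names were picked from the iron and heme genes. Of those not drawn, Tfrc, Cp, Blvra and Hmox2 were higher on array 2 and Trf was higher on array 1.

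**Figure D3:**
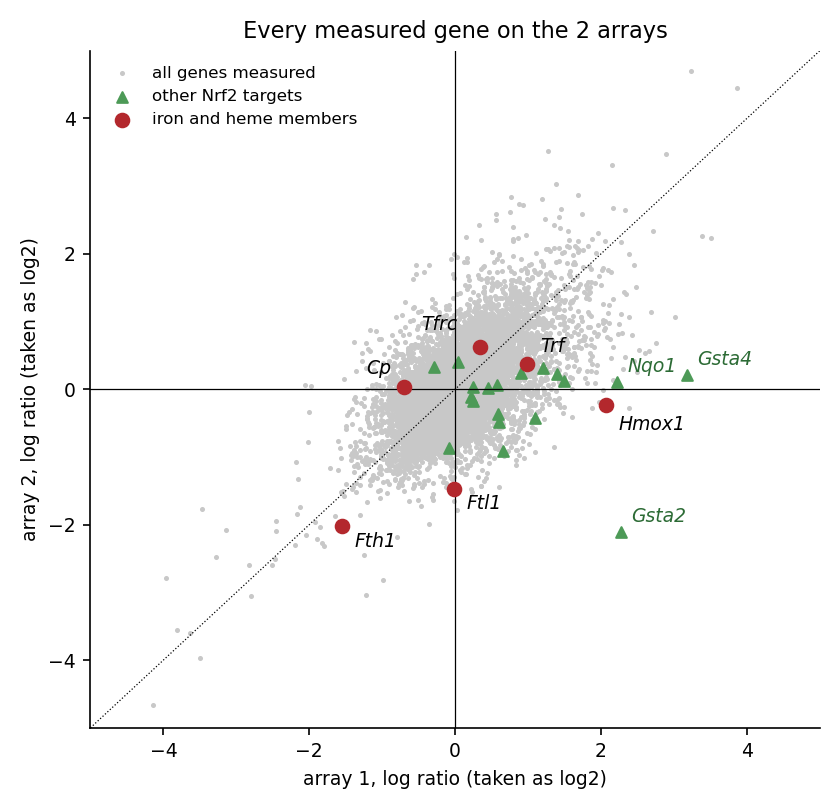
Log ratio on array 1 (horizontal) against array 2 (vertical), both taken as log2, for 13506 genes (grey), 19 other Nrf2 targets (green triangles) and 6 members (red); the dotted line marks equal values. Fth1 lies near that line at the negative end, and Hmox1 lies with Nqo1 and Gsta4 well to the right of it.

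The making of heme and iron-sulfur clusters held 1 called gene. Alas1, which starts heme synthesis, had 0.82 and 0.25, Uros 0.67 and 0.21, and Ppox, a later enzyme of the same route, 0.36 and 0.31. Tspo, a protein of the outer mitochondrial membrane that binds porphyrins, had -0.83 and -0.91, a mean of -0.87 ± 0.06 (SD, n = 2; limma adjusted p = 0.0563). Among 15 measured genes of heme synthesis and transport, both values were positive for 7 and negative for 2, beside 33.9% and 38.2% of all genes. Limma called 0 of them, and 2 reached an unadjusted p under 0.05, beside 2.90% and 27.5% of all genes.

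Hscb, a co-chaperone that hands new iron-sulfur clusters to their targets, was called. It had 1.51 and 1.49, a mean of 1.50 ± 0.02 (SD, n = 2; limma adjusted p = 0.0286), and remained called in 7 of 10 alternatives. On the positive side 2.12% of all genes were called. Its partner chaperone Hspa9, named after its values were seen, had -0.22 and -0.11. Slc25a28, a mitochondrial iron importer, had -0.52 ± 0.17, Glrx5 -0.34 ± 0.02 and Fdx2, a ferredoxin of cluster assembly, -0.33 ± 0.02. Of 27 measured genes of this list, both values were positive for 9 and negative for 11, and Hscb was the 1 called.

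Over the 7 iron and heme lists together, 95 of 115 genes were measured and 2 were called, Fth1 and Hscb, on opposite sides. That is a share of 2.11%, beside 2.90% of all genes. On both arrays 33 were positive and 35 negative, and the median of -0.00080, which became 0.02 after centring, lay near that of all genes, -0.02. The members' own count, 1 of 6, rests on Fth1.

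**Figure D4:**
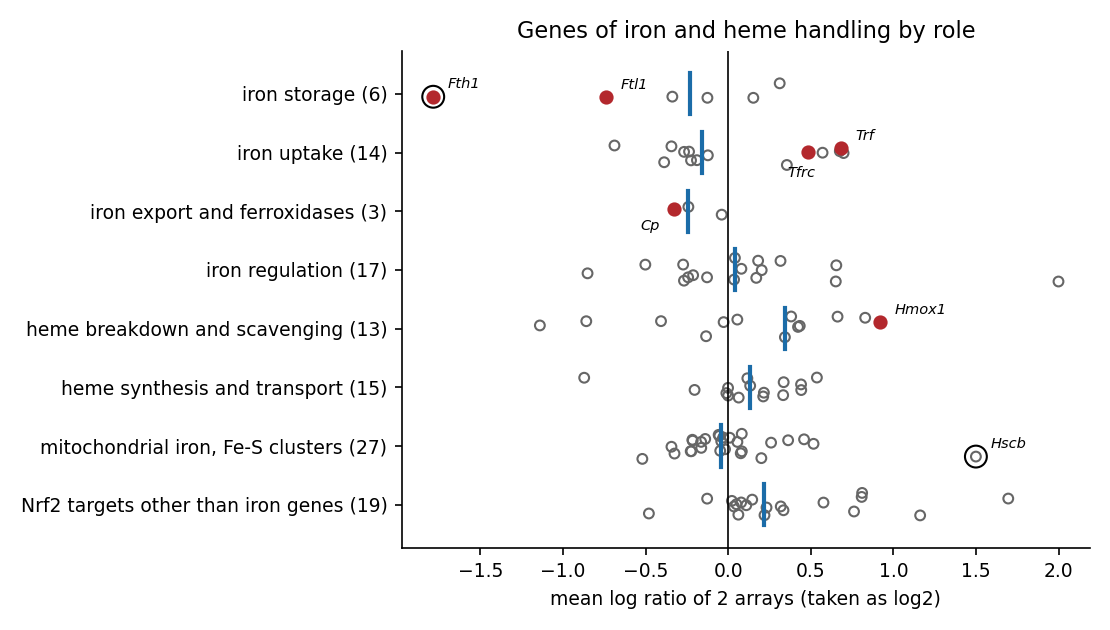
Mean log ratio of 2 arrays (horizontal axis, taken as log2) of each measured gene by role, with the number of genes in brackets. Red points are members, large rings mark the called genes Fth1 and Hscb, and blue bars mark the median of each list, from -0.24 for export to 0.34 for heme breakdown.

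Cells other than tumour cells also make these proteins. Hepatocytes secrete Trf, Cp and Hamp. Of 15 measured hepatocyte markers, both values were positive for 3 and negative for 6, beside 33.9% and 38.2% of all genes. Limma called 0 of the 15, and 5 reached an unadjusted p under 0.05, beside 2.90% and 27.5% of all genes. Their means ran from -0.95 to 0.80, with Ttr at 0.80 ± 0.06 (SD, n = 2), Asgr1 at 0.74 ± 0.01 and Fah at -0.95 ± 0.50, and the median of -0.03 became 0.04 after scaling. Acute phase genes (8 measured) had a median of -0.11 and 0 called, with Socs3 at -0.42 ± 0.04, Saa2 at -0.39 ± 0.27 and Lbp at 0.53 ± 0.48, and 1 at an unadjusted p under 0.05.

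Macrophages recycle heme, and erythroid cells carry much transferrin receptor. Among 10 measured macrophage and Kupffer cell markers, Cd14 was called on the negative side at -1.20 ± 0.33 (SD, n = 2), Fcgr1 had 1.12 ± 0.52 and Clec4f 0.31 ± 0.02, and the median was -0.16. Among 6 measured erythroid markers, Tal1, which endothelial cells also use, was called at 1.41 ± 0.23, with Klf1 at 0.47 ± 0.20, Epor at 0.44 ± 0.01 and a median of 0.19. Both values were positive for these 3 and negative for Epb42, at -0.28 ± 0.03, while Ank1 and Gata1 changed sign between the arrays, with means of -0.24 and -0.06; these last 3 were named after their values were seen. The globin genes were not measured. Endothelial markers had a median of 0.45 over 10 genes, with 7 positive on both arrays, and Flt1 at 1.25 ± 0.36, Robo4 at 1.04 ± 0.21 (both called) and Eng at 0.70 ± 0.17. Colonic epithelium markers had a median of 0.10 over 11 genes, with 0 called and 3 at an unadjusted p under 0.05. Krt20 had 0.49 ± 0.25, Vil1 -0.42 ± 0.17 and Lgals4 -0.36 ± 0.05. An unadjusted p under 0.05 was reached by 2 macrophage and Kupffer cell, 3 erythroid and 5 endothelial markers, beside 27.5% of all genes. Over all genes 2.12% were called positive and 0.777% negative, and 33.9% were positive on both arrays. Of 10 alternatives the call was kept in 6 for Tal1, 4 for Flt1, 2 for Cd14 and 1 for Robo4. The part of these cells in the ratios of the members was not tested.

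Fth1 is an abundant messenger in most cells, and most ribosomal protein messengers, also abundant, were negative too. Of 58 cytosolic ribosomal protein genes, 47 were negative on both arrays, beside 38.2% of all genes, with a median of -0.48. Limma called 4 of them, all negative, a share of 6.90% beside 0.777% of all genes on that side. An unadjusted p under 0.05 was reached by 33, beside 27.5% of all genes. Fth1 at -1.79 lay beyond the median of the ribosomal protein genes but within their range, which ran from -1.94 to 0.95. Other genes, picked by name as abundant or as common reference genes and without a measure of their level here, were mostly negative too. Ppia at -1.52 ± 0.02 and Eef1a1 at -1.44 ± 0.05 were both called (limma adjusted p = 0.0283 and 0.0320). Actb had a mean of -0.63, Tpt1 -0.58, Hprt -0.37, Gapdh -0.31 and B2m 0.21, and none of these was called. The part of signal strength in the ratio of Fth1 was not tested. The genes with ratios most like Fth1 over the 2 arrays, by Euclidean distance, were Col4a2, a collagen of basement membranes, at -1.64 and -1.87, Iftap at -1.31 and -1.86, and Prss23, a serine protease, at -1.85 and -2.04. Their distances were 0.17, 0.29 and 0.30 units, and 2 arrays give only a weak measure of likeness.

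In order of their means the members ran from Fth1 and Ftl1 over Cp, Tfrc and Trf to Hmox1. The steps from Fth1 to Ftl1 (1.05 units) and from Cp to Tfrc (0.81) were larger than the larger SD of the neighbours, 1.03 and 0.52, and had the same order on both arrays. Differences within an array, which share 1 pair of tumours, had SDs of 0.70 for Fth1 and Ftl1 and 0.32 for Cp and Tfrc. The steps were not tested. For Ftl1 and Cp, Tfrc and Trf, and Trf and Hmox1 the step was below the larger SD, and each of these 3 pairs changed its order between the arrays.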

How the data were processed

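The authors deposited 1 table with a log ratio of the 2 channels, taken as log2, for 23473 probes on 2 arrays, and 18837 probes had a value on both. For the base, numerator, background correction and normalization, the sources used here give nothing. The RNA was amplified with an amino-allyl kit, per the labels' protocols. The platform annotation named 16631 probes with 1 gene, several for 0 and none for the other probes, and 3947 symbols were updated through unique synonyms in the RefSeq table of GRCm38.p6. Probes were averaged to 13506 genes. Each of the 6 measured members had 1 probe.

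Mean ratios were compared with 0 by limma 3.58.1 under R 4.3.3 (1 residual and 4.06 prior degrees of freedom), adjusted by Benjamini-Hochberg over all genes. Figures used matplotlib 3.10.9. The number of arrays limits the precision. In a test on simulated ratios of 13506 genes, 200 were given a true change. True changes of 1 unit were found in 56% of cases and of 2 units in 96%. There were 175 true and 21 false calls, a larger share of false calls than the threshold on the adjusted p aims at. These rates describe the simulated ratios, and whether they hold for the real arrays was not tested. Members and gene lists were chosen with earlier results of these data known. Named were all members, fixed partner genes, called genes of the lists, and per list up to 4 genes (markers 3) ranked by the smaller of their 2 values, unless said otherwise. Alternatives changed the unit, scaling, filter, moderation and threshold, and left out each array.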

Additional observations from a re-analysis of the deposited data

How the results depend on the processing

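Leaving out array 1 turned 2 members' ratios, after which Cp had 0.041 and Hmox1 -0.24, and the 10 alternatives with a test kept the sign of all 6 members. Left with 1 array, which allows no test, Fth1 ran from -2.02 to -1.55, Ftl1 from -1.47 to -0.01, Trf from 0.37 to 0.99, Tfrc from 0.34 to 0.63, Cp from -0.70 to 0.041 and Hmox1 from -0.24 to 2.07. The number of members called was 1 in 7 of 10 alternatives and 0 after quantile normalization, without moderation and with a variance trend. The number of called iron and heme genes was 2, 0 in those 3 settings, and 7 when genes with a value on 1 array were let in. The number of all called genes, 391, became 238 on probes, 241 with the arrays scaled to equal spread, 4 with quantile normalization, 1041 with values on at least 1 array, 108 against a minimum fold of 1.2, and 0 without moderation or with a variance trend. Of the 391, 286 were positive and 105 negative, and of the 4, 1 and 3. The cause was not tested. Each array holds both tissues, so the test of the ratios against 0 already uses the pairing on the array. With 1 group of ratios, no further pairing was possible.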

Other observations

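The genes with the widest gaps between the 2 arrays, looked up after the data were seen, included several beside Hmox1 that share its direction. Gsta2 and Gsta4, both in the list of Nrf2 targets, had the widest gaps at 4.38 and 2.97 units. Fetub, a liver plasma protein, followed with 2.39 on array 1 and -0.28 on array 2. Sprr2e, a protein of squamous epithelium, had 2.50 and 0.26. The opposite direction was taken by Msrb3, a methionine sulfoxide reductase, at -0.54 and 1.83, and by Cd37, a leukocyte surface protein, at 1.28 and 3.53. These gaps have no replicate and were not tested.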
